A study of Mus musculus with 4 samples.

Results

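The response of RAW264.7 cells to bacterial lipopolysaccharide (LPS) in the presence of an siRNA pool against Ruvbl2 was read as the difference between 2 of the study's 4 arrays, the array labelled LPS minus the array labelled DMSO. RAW264.7 is an established mouse macrophage-like tumour line. The study transfected it with a non-targeting or a Ruvbl2 siRNA (SMARTpool, spelled siRvbl2 in the sample titles), either by electroporation or with a lipid reagent, and analysed the cells 2 days later; the sources used here state neither the method used for each sample nor how much LPS was given and for how long. DMSO, a solvent, is the label of the samples without LPS. Each group was 1 total RNA hybridised to 1 array, with no replicate, so no difference below carries a p-value, and the 4 arrays, 2 with control siRNA and 2 with Ruvbl2 siRNA, shared 1 slide.

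LPS is recognised by Toll-like receptor 4 with CD14 and MD-2. One branch of its signalling, through MyD88, activates NF-kB and MAP kinases and turns on cytokine, chemokine and immediate early genes; the other, through TRIF, activates IRF3 and leads to type I interferon, whose receptor then switches on antiviral genes through the JAK-STAT pathway. RUVBL2, an AAA+ ATPase, forms rings with its relative RUVBL1 and serves in the INO80, SRCAP and TIP60 chromatin complexes and, within R2TP, in the assembly of large protein complexes such as RNA polymerases and PI3K-like kinases.

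The targeted transcript was checked first. On its brighter probe Ruvbl2 read 5.01 and 4.92 on the control siRNA arrays (DMSO and LPS) and 4.67 and 4.51 on the Ruvbl2 siRNA arrays, as log2 of the processed signal minus the 75th percentile of the array, the scale of every level below. It was thus 1.26-fold lower with the siRNA under DMSO and 1.32-fold lower under LPS, and between its own 2 arrays it differed by -0.15 (0.21 with the spike-in scaling described below). A second, dimmer probe read -1.61 and -2.25 with control siRNA and -2.15 and -2.37 with Ruvbl2 siRNA, a difference between the siRNAs of -0.55 under DMSO and -0.12 under LPS. Ruvbl1, its partner, read 5.56 and 5.58 on the Ruvbl2 siRNA arrays. Of 9 macrophage markers 8 were well above background on both of these arrays (all but Mertk), with Csf1r at 9.13 and 8.90 and Cd68 at 7.22 and 7.05. None of 5 epithelial markers was well above background, and of the other lineages 3 of 5 T cell markers, 1 of 5 B cell markers and 1 of 5 fibroblast markers were, on both arrays; of 4 neutrophil markers on the array 3 were with DMSO and 2 with LPS. The 5 dendritic cell markers were dim except Siglech (7.29 and 7.25) and Zbtb46. In RNA from a whole culture, fewer responding cells and less RNA per cell cannot be told apart.

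With Ruvbl2 siRNA, 559 of 13517 genes compared (4.14%) were at least 2-fold higher with LPS and 280 (2.07%) at least 2-fold lower, 6.21% in either direction. Counts called in a gene list below are to be read beside these shares. A gene counted as compared when its brightest probe was well above background on at least 1 of the 2 arrays, and that array the brighter. It was measured where both arrays detected it (12657 genes), and otherwise given a bound against the lowest detected signal of the dim array (860 genes), written below as "at least". The response was lopsided in size as well as in number. Of the higher genes 160 passed 4-fold, 57 passed 8-fold and 26 passed 16-fold, against 34, 3 and 0 of the lower ones. The other genes lay close to 0, with a median difference of -0.03 and with the middle of the measured differences (25th to 75th percentile) between -0.26 and 0.21. Spots printed 10 times gave a technical SD of the difference of 0.064 for bright probes, 0.13 at levels between -2 and 3, and 0.27 between -4 and -2; this covers spots within an array, not cultures.

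The counts in both directions depended on the scale. The median level of the E1A spike-in probes, relative to the 75th percentile, was 0.37 lower on the LPS array. Taken singly, the 7 probes well above background on all 4 arrays differed by -0.41 to -0.25, with a median of -0.32. Scaling on the median level raises every difference by 0.37 and the median of all genes to 0.34. Because that shift is positive, no higher gene could fall below 2-fold with it, and the 559 became part of 1103 higher genes. Lower genes could only be lost, and 120 of the 280 stayed past 2-fold. Differences between -0.37 and 0 change sign with it, which is said where the median of a list described below lies there. The median E1A level was 3.95 on the Ruvbl2 siRNA DMSO array, against 3.58 on its LPS array and 3.64 (DMSO) and 3.57 (LPS) with control siRNA. Spike-in scaling would thus widen the gap in Ruvbl2 between the siRNAs under DMSO and hardly move it under LPS. Starting instead from the median signals with normexp background correction and quantile normalization, written below as normexp, left 292 of the higher and 110 of the lower genes past 2-fold, with no change of sign.

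**Figure D1:**
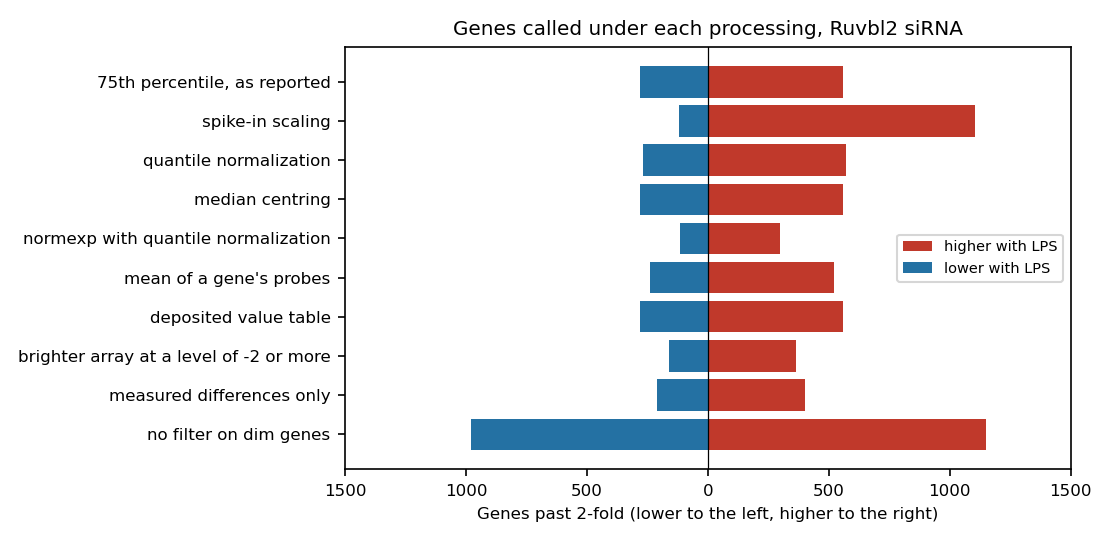
Number of genes at least 2-fold higher (red, to the right of 0) and lower (blue, to the left) with LPS in the Ruvbl2 siRNA pair under each processing (rows). The reported scaling gives 559 and 280, spike-in scaling 1103 and 120, normexp 298 and 116, and no filter on dim genes 1151 and 978.

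**Figure D2:**
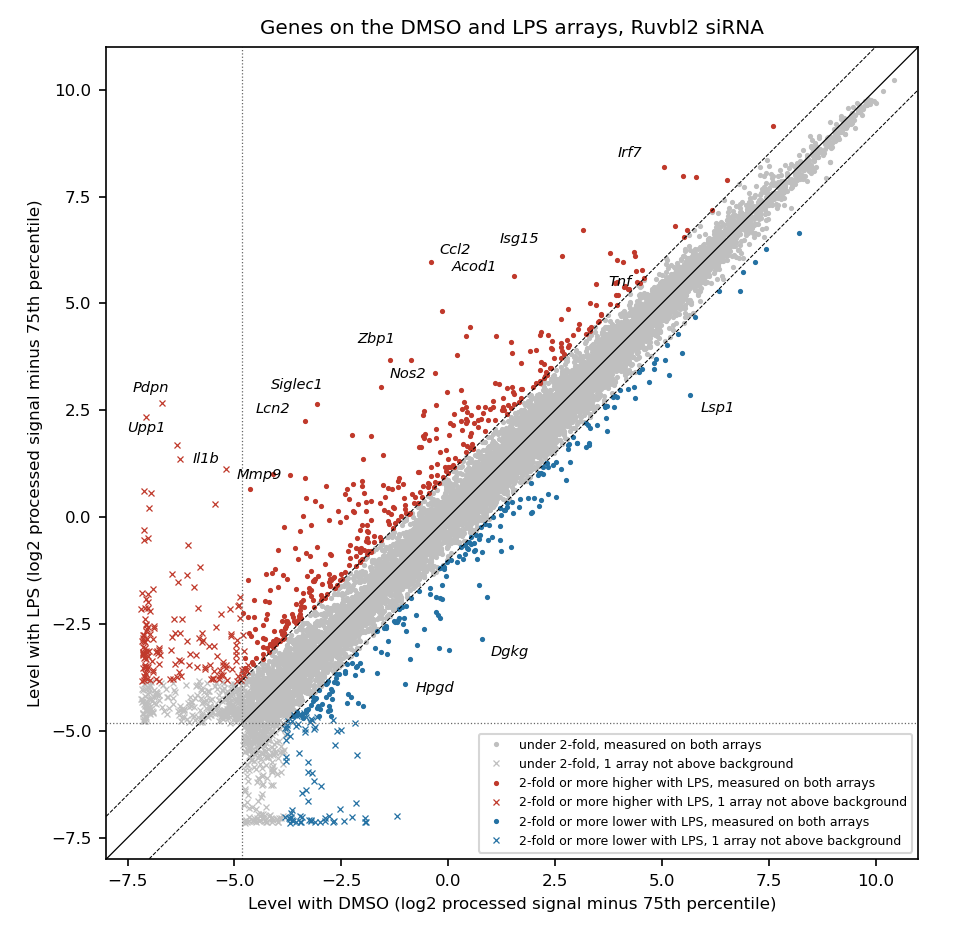
Level of each gene compared on the DMSO array (x axis) and the LPS array (y axis) with Ruvbl2 siRNA, both as log2 processed signal minus the 75th percentile of the array; each point is a gene, crosses are genes not above background on 1 array, drawn at the value read, dashed lines mark 2-fold and dotted lines the lowest detected level. The 559 higher genes reach much farther from the diagonal than the 280 lower ones, and many called genes sit near the floor.

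Chemokines, which draw neutrophils and monocytes, had the largest share called: 11 of 15 compared were called higher (73.3%, against 4.14% of all genes), none lower, with a median difference of 2.40. Ccl2, the main monocyte attractant, stood at -0.40 with DMSO and 5.97 with LPS, 82.8-fold higher, the largest measured difference of any gene named here. Its neighbours on chromosome 11 followed: Ccl7 was not well above background with DMSO and stood at 0.57 with LPS, at least 42.2-fold higher, and Ccl12 at least 22.97-fold higher. Ccl5, a T cell and monocyte attractant that is also interferon-inducible, stood at -0.14 with DMSO and 4.82 with LPS, 31.1-fold higher. The macrophage inflammatory proteins were already bright without LPS, Ccl4 at 3.16 with DMSO and 6.71 with LPS (11.7-fold) and Ccl3 at 3.79 with DMSO and 6.19 with LPS (5.26-fold). Among neutrophil attractants, Cxcl2 stood at -3.12 with DMSO and 0.38 with LPS, 11.3-fold higher, and Cxcl3 was at least 6.57-fold higher. Cxcl10, an interferon-inducible attractant of T cells, stood at 1.41 with DMSO and 2.63 with LPS, 2.34-fold higher. The scavenger chemokine Cxcl16 went the other way without reaching 2-fold, at 2.76 with DMSO and 2.27 with LPS.

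Cytokines were called less uniformly, with 6 of 19 compared higher (31.6%), none lower and a median of 0.54; the other listed cytokines were dim on both arrays or not on the array. Il1b, the pyrogenic cytokine processed by the inflammasome, was not well above background with DMSO and stood at 1.36 with LPS, at least 73.3-fold higher. Tnf stood at 3.46 with DMSO and 5.46 with LPS, 3.998-fold higher, and Osm stood at -0.68 with DMSO and 1.64 with LPS, 4.995-fold higher. Csf3, which drives granulocyte production, was higher by at least 8.29-fold. Il6, the inducer of acute phase proteins, was higher by at least 2.44-fold, a call that ends with normexp (log2 0.71) and with the mean of its probes (0.30). Both were dim, Csf3 at -1.78 and Il6 at -3.54 with LPS. Ifnb1, the interferon that starts the secondary antiviral wave, was near the limit of detection: not above background with DMSO and at -4.27 with LPS, a bound of 1.48-fold. Il10 was similarly dim, at -4.29 with LPS, a bound of 1.46-fold, whereas with control siRNA it was measured on both arrays with a log2 difference of 2.55.

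The proximal promoters of these genes can be read beside their values. RefSeq windows of 300 bases (250 before to 50 after a start, GRCm38.p6) were in hand for 10809 of the 13517 genes compared, some with several windows. The kappa B motif, the site read by NF-kB and searched by name on both strands, was in 5 of 11 windows of called cytokines and chemokines (45.5%), in 13.1% of windows of all called higher genes, 10.1% of called lower genes and 10.2% of genes compared. Cxcl2 (chr5:90903649-90903948 on the plus strand), Cxcl3 (chr5:90785851-90786150 on the plus strand) and Il6 (chr5:30012864-30013163 on the plus strand) are shown as neutrophil and acute phase genes from the response, Il6 with the limits given above. Capitals mark the motif, which lies 97, 73 and 44 bases before the start; in Cxcl2 and Cxcl3 the capitals join matches on both strands that overlap.
Cxcl2: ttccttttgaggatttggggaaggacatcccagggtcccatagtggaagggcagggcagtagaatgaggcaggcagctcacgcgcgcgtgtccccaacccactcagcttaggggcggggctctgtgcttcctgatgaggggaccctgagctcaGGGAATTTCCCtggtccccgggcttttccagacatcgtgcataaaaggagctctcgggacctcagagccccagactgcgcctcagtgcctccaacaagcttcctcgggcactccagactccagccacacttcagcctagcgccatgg
Cxcl3: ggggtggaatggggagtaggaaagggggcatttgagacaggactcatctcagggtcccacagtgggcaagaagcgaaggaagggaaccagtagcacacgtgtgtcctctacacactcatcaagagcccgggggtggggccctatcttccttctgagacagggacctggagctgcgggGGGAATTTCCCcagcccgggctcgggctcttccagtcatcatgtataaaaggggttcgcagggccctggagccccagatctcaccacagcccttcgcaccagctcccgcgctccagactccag
Il6: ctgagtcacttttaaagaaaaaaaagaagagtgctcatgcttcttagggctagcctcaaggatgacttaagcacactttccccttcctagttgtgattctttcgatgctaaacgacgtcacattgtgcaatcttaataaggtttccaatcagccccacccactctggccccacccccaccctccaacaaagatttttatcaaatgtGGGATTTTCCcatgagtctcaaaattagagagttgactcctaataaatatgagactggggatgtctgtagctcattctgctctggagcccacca
Cxcl2 and Cxcl3 are neighbouring genes of chromosome 5, with Pf4 (2.44-fold higher) beside them, and both carry the same run of letters. A match describes these letters and shows no binding.

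Receptors for microbial products were called unevenly. Of 26 compared genes of the Toll-like receptor 4 complex, its adaptors and kinases, 1 was higher and 1 lower (median 0.08). Tlr4 read 2.23 with DMSO and 2.04 with LPS and Ly96, which encodes MD-2, 2.87 with DMSO and 2.78 with LPS, differences that would turn positive with spike-in scaling. Cd14 was already bright, at 7.47 with DMSO and 8.35 with LPS (1.84-fold). The kinase Ikbke, which acts with TBK1, was 2.05-fold higher and Irak1, the MyD88 pathway kinase, 2.36-fold lower (2.53 with DMSO and 1.29 with LPS). Neither call holds with the mean of a gene's probes (log2 0.72 and -0.70), and Irak1 is at -0.87 with spike-in scaling. The other pattern receptors were called higher more often, 6 of 21 (28.6%) with a median of 0.71, though 14 were under 2-fold. Clec4n, the dectin-2 lectin that binds fungal mannans, stood at -1.36 with DMSO and 3.69 with LPS, 33.1-fold higher. The formyl peptide receptor Fpr2 stood at -3.70 with DMSO and 0.997 with LPS, 25.9-fold higher, and its relative Fpr1 was at least 3.27-fold higher. Nod2, a sensor of peptidoglycan fragments, was 2.79-fold higher (log2 1.48, but 0.80 as the mean of its probes), whereas Trem2, a lipid receptor, was 2.24-fold lower (-1.16, or -0.80 with spike-in scaling). Tlr2 read 5.53 with DMSO and 4.88 with LPS, and by symbol none of 8 Tlr genes compared was called (median 0.22).

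Surface receptors for antibodies, sugars and chemoattractants were mostly called higher where they were called. In the scavenger, lectin and Fc list 8 of 30 were higher (26.7%) and none lower. Siglec1, the sialic acid lectin CD169, was 52.6-fold higher (-3.06 with DMSO and 2.65 with LPS), and Fcgr1, the high-affinity IgG receptor, 4.31-fold. Fcgr4 and the inhibitory Fcgr2b were higher by 1.22 and 1.14 on the log2 scale, against 2.83 and 2.90 with control siRNA. The class A and class B scavenger receptors Msr1 and Cd36 were 2.15-fold and 2.05-fold higher, at the edge of the call (Msr1 0.97 with the mean of its probes, Cd36 0.99 with normexp). Chemoattractant receptors went both ways, with 5 higher (20.8%) and 3 lower (12.5%) of 24. Adora3, an adenosine receptor, stood at -2.98 with DMSO and 0.27 with LPS, 9.52-fold higher, and Hcar2, the niacin receptor, was 3.95-fold higher. Cx3cr1, the fractalkine receptor of resident macrophages, stood at 6.89 with DMSO and 5.73 with LPS, 2.24-fold lower, and the oxysterol receptor Gpr183 was 2.40-fold lower; with spike-in scaling they are at -0.80 and -0.89 on the log2 scale, short of 2-fold.

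Genes of the signalling pathways themselves were mostly within 2-fold. Of 26 NF-kB genes 2 were higher (7.69%) and none lower (median 0.15). Nfkbiz, the nuclear IkB zeta that co-activates secondary response genes, stood at -1.29 with DMSO and 0.23 with LPS, 2.86-fold higher. Bcl3 was 2.15-fold higher. The inhibitor Nfkbia, a rapid NF-kB target, read 5.71 with DMSO and 6.11 with LPS. Tnfaip3, encoding A20, read 1.02 with DMSO and 0.73 with LPS, a difference of -0.29 that turns positive with spike-in scaling. Among 26 immediate early genes 3 were higher and 1 lower. Ier3 was 5.05-fold, Myc 4.20-fold and the AP-1 subunit Fosl1 2.84-fold higher, and Klf4 2.52-fold lower (-0.96 with spike-in scaling). Fos and Egr1, which peak early after a stimulus, differed by -0.26 and 0.57, the former positive with spike-in scaling. Of 17 MAP kinase phosphatase and Sprouty genes, Dusp6 (2.93-fold) and Gadd45b (2.64-fold) were higher.

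Brakes on inflammation were more often called, 8 higher and 2 lower of 23 (median 0.59). Socs3, the inhibitor of gp130 signalling, stood at 0.51 with DMSO and 4.45 with LPS, 15.3-fold higher. Il1rn, the interleukin 1 receptor antagonist, stood at 1.13 with DMSO and 4.24 with LPS, 8.63-fold higher, and Socs1 was 3.52-fold higher. Zfp36, encoding tristetraprolin, which speeds the decay of AU-rich cytokine mRNAs, was 2.14-fold higher, and Cd274, encoding the checkpoint ligand PD-L1, 2.72-fold. Gas6, a ligand of the Axl and Mertk receptors, was 2.10-fold lower (-0.71 on the log2 scale with spike-in scaling), and Tgfbi at least 4.68-fold lower. In the list of cytokine receptors, which shares Il1rn, 7 of 34 were higher and none lower, among them Cd40 (3.78-fold), the interleukin 7 receptor Il7r (3.45-fold) and the TNF receptor Tnfrsf1b (3.17-fold).

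**Figure D3:**
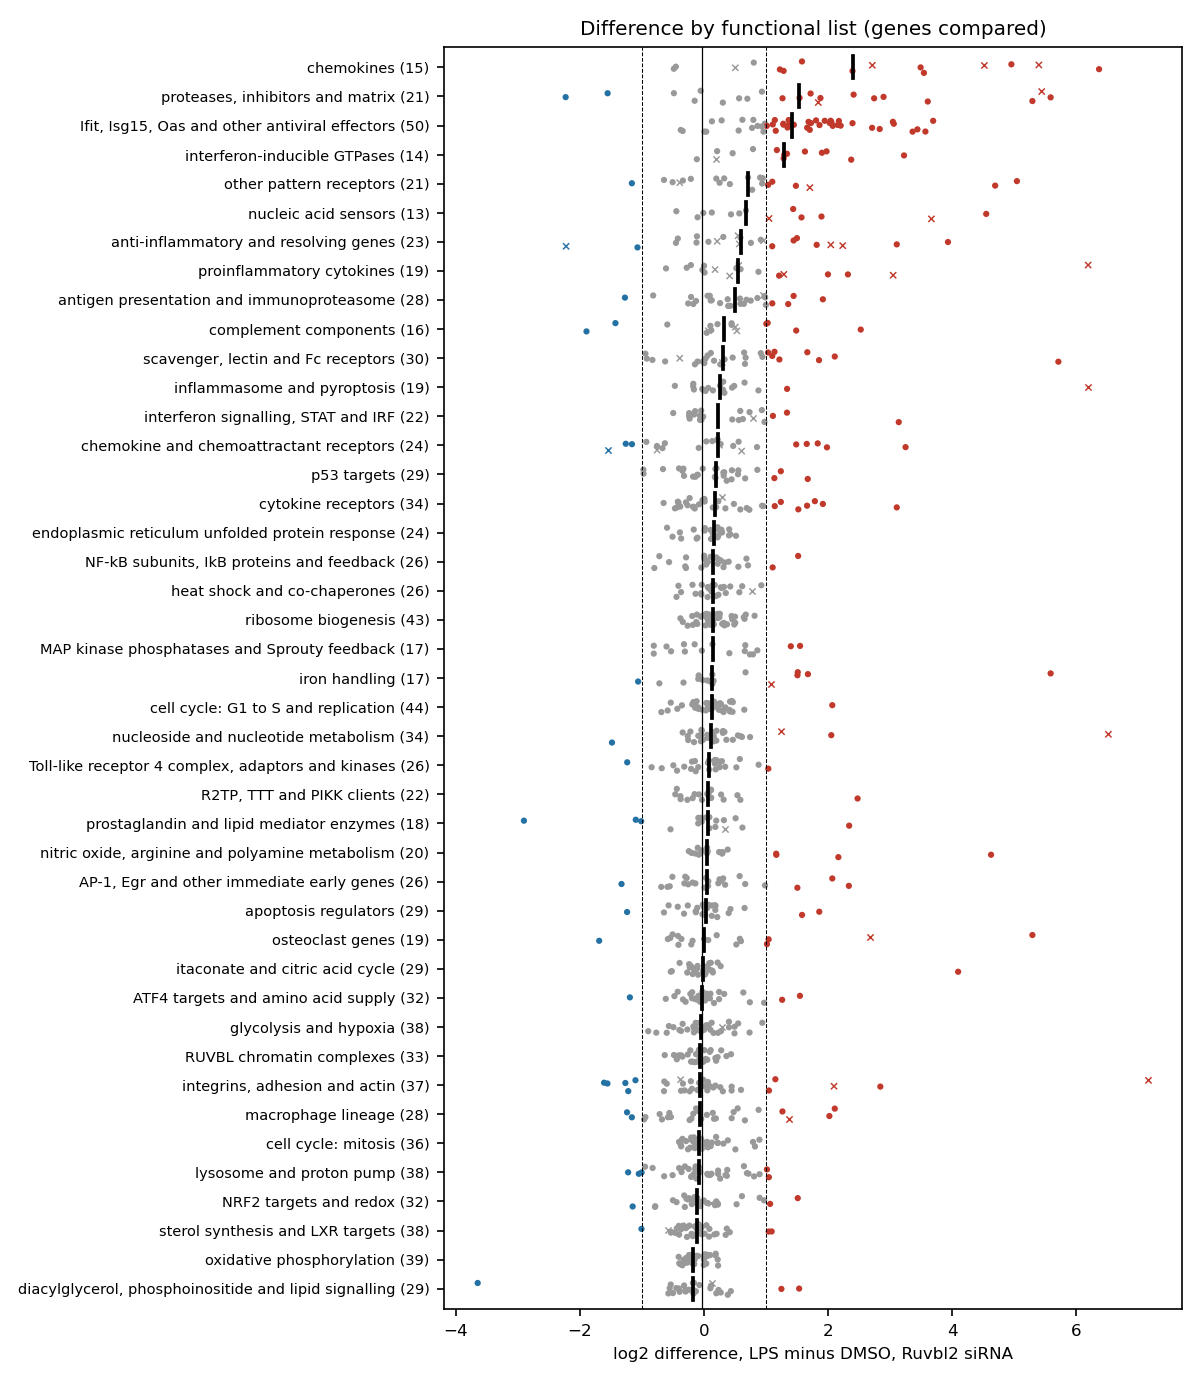
log2 difference (LPS minus DMSO, Ruvbl2 siRNA, x axis) of every compared member of each functional list (rows, with the number compared); points are genes measured on both arrays, crosses bounds, red and blue those past 2-fold, thick bars list medians, the solid line the median of all genes and dashed lines 2-fold. Chemokines (median 2.40), proteases and matrix (1.54), antiviral effectors (1.42) and interferon-inducible GTPases (1.29) are the lists with medians past 2-fold, while housekeeping lists sit around 0.

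Interferon-stimulated genes formed the broadest block. Of 50 antiviral effectors compared 36 were higher (72%) and none lower, with a median of 1.42 that was 1.42 with normexp as well. Isg15, the ubiquitin-like modifier, stood at 2.67 with DMSO and 6.12 with LPS, 10.9-fold higher, and genes of its conjugation system were higher with it: the activating enzyme Uba7 was 2.54-fold, the ligase Herc6 2.43-fold and the deconjugase Usp18 4.21-fold higher. Ifit1, which holds back translation of viral RNA, stood at -3.22 with DMSO and -0.17 with LPS, 8.27-fold higher, and Ifit3 was 6.55-fold and Ifit2 2.42-fold higher. The oligoadenylate synthetase group that activates RNase L was higher throughout its called members, led by Oasl2 (10.3-fold); by symbol 7 of 10 Oas genes were called. Rsad2, encoding viperin, stood at -2.39 with DMSO and 0.003 with LPS, 5.26-fold higher, and its neighbour Cmpk2 was 4.15-fold higher. Bst2, the tetherin that holds budding virions at the membrane, was 4.16-fold higher and the kinase Eif2ak2, PKR, 2.56-fold. Apol9b and Apol9a, near-identical genes whose probes may share signal, were 12.96-fold and 11.9-fold higher.

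The interferon-inducible GTPases, which attack the membranes around intracellular microbes, were higher in 9 of 14 (64.3%), none lower. Gbp7 stood at -4.68 with DMSO and -1.46 with LPS, 9.36-fold higher, from a DMSO level near the floor (log2 3.23, or 1.37 with normexp), and Gbp3 stood at -3.08 with DMSO and -0.70 with LPS, 5.18-fold higher. Of the immunity-related GTPases, Irgm1 stood at 1.71 with DMSO and 3.62 with LPS, 3.74-fold higher, and Igtp was 3.09-fold higher. Cytosolic nucleic acid sensors gave 6 of 13 higher, none lower. Zbp1, a sensor of Z-form nucleic acid, stood at -0.87 with DMSO and 3.69 with LPS, 23.5-fold higher, while the RNA sensor Ifih1, MDA5, was 3.72-fold and its regulator Dhx58 2.97-fold higher. The p200 gene Ifi202b was 14.1-fold higher on its brighter probe, and its relatives are similar enough in sequence for probes to cross-react. The signalling genes that drive these targets differed less, 3 of 22 higher. Irf7, the amplifier of interferon production, stood at 5.05 with DMSO and 8.19 with LPS, 8.82-fold higher, and Irf1 read 2.89 with DMSO and 2.82 with LPS.

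The interferon-stimulated response element, a site read by interferon regulatory factors, was searched as GAAA, any 2 bases and GAAA, on both strands of the same windows. It was in 27 of 47 windows of the called antiviral effectors and GTPases (57.4%), in 12.6% of windows of all called higher genes, 2.61% of called lower genes and 3.2% of genes compared. The kappa B motif was in 12.8% of windows of those interferon-stimulated genes. Other motifs were searched as well. The AP-1 motif was in 31.9% of those windows, 11.1% of windows of all called higher genes, 7.84% of called lower genes and 5.58% of genes compared. In the same interferon-stimulated windows the CEBP and CCAAT motifs were at 8.51% and 38.3%, against 8.84% and 37.9% of genes compared. Isg15 (chr4:156200769-156201068 on the minus strand), Ifit1 (chr19:34640639-34640938 on the plus strand) and Gbp3 (chr3:142559794-142560093 on the plus strand) show clustered elements, and Cxcl10 (chr5:92348840-92349139 on the minus strand) a single one, with the matches in capitals.
Isg15: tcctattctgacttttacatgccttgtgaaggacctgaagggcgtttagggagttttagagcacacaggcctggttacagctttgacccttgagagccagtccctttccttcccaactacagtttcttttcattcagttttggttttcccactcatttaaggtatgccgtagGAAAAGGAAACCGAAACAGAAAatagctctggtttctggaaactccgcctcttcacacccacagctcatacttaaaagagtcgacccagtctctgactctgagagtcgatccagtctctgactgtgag
Ifit1: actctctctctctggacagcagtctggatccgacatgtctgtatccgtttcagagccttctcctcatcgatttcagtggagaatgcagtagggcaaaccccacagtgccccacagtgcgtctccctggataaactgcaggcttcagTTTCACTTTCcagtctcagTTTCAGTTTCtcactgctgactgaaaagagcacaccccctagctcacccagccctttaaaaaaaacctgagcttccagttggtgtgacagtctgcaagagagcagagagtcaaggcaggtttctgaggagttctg
Gbp3: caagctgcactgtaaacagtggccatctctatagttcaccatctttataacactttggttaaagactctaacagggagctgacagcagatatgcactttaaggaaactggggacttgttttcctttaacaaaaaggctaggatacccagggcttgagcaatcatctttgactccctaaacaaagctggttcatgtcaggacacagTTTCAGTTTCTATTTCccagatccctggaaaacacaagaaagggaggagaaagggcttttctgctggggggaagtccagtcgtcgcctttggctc
Cxcl10: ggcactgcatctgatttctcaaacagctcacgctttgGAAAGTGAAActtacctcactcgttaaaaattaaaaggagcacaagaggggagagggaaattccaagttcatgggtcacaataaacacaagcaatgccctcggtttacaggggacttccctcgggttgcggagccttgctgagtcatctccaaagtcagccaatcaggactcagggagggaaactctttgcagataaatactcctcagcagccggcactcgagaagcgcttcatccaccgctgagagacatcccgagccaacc
In Isg15 3 overlapping matches start 78, 72 and 66 bases before the gene's start. Ifit1 has 2 separate matches, 104 and 85 bases before it, and Gbp3 2 overlapping ones at 45 and 39 bases. The single match of Cxcl10 is farthest out, at 213 bases. Whether the number or place of matches goes with the size of a difference was not tested.

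Antigen presentation genes were called in part, 4 higher and 1 lower of 28 with a median of 0.50. The nonclassical class I genes H2-T10 and H2-T22, close paralogs, were 2.56-fold and 2.15-fold higher, and the peptide transporter Tap1 was 1.97-fold higher. The costimulator Cd40 was called, as above, whereas Cd83 was 2.42-fold lower (3.02 with DMSO and 1.74 with LPS), though its difference is -0.91 with spike-in scaling. Cd80 read 2.26 with DMSO and 1.44 with LPS on its brightest probe, a difference of -0.82, but the mean of its probes gives 1.39, so its direction is not settled. Proteasome genes by symbol were shifted slightly, 41 of 49 Psm genes above 0 with a median of 0.20 and none called. In the inflammasome list, which shares Il1b, the noncanonical caspase Casp4, a direct sensor of LPS, was 2.53-fold higher, and no other of the 19 was called. The sensor Nlrp3 read -1.98 with DMSO and -1.49 with LPS, and the substrates Il18 and Gsdmd differed by 0.88 and 0.31.

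In arginine metabolism Nos2, the inducible nitric oxide synthase, stood at -1.57 with DMSO and 3.06 with LPS, 24.8-fold higher. Gch1, which makes its cofactor tetrahydrobiopterin, was 2.24-fold, the arginase Arg2 2.24-fold and the polyamine enzyme Odc1 4.49-fold higher. These 4 were the called genes of 20. Of 29 itaconate and citric acid cycle genes only Acod1, which diverts cis-aconitate to itaconate, was called: it stood at 1.55 with DMSO and 5.65 with LPS, 17.1-fold higher. The enzymes of the cycle itself lay around 0, with a list median of -0.01 (0.36 with spike-in scaling). Of 18 prostaglandin and lipid mediator genes 1 was higher and 3 were lower, with a median of 0.06. Ptgs2, encoding cyclooxygenase 2, stood at -0.28 with DMSO and 2.06 with LPS, 5.07-fold higher, and Hpgd, the enzyme that inactivates prostaglandins, stood at -0.999 with DMSO and -3.90 with LPS, 7.49-fold lower. The leukotriene enzymes Alox5 and Ltc4s were 2.02-fold and 2.15-fold lower, though neither stays past 2-fold with spike-in scaling.

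Nucleotide and iron genes had a few large differences among many near 0. Upp1, the uridine phosphorylase of pyrimidine salvage, was not well above background with DMSO and stood at 1.69 with LPS, at least 91.9-fold higher, and Cda, cytidine deaminase, was at least 2.38-fold higher. Pnp2, a purine nucleoside phosphorylase, was 2.80-fold lower. Lcn2, the lipocalin that binds bacterial siderophores, stood at -3.34 with DMSO and 2.25 with LPS, 48.2-fold higher. Slc11a1, the phagosomal metal transporter NRAMP1, and Cp, ceruloplasmin, were 3.20-fold and 2.84-fold higher, and the iron exporter Slc40a1, ferroportin, 2.09-fold lower. Cp is at 0.53 on the log2 scale with the mean of its probes and Slc40a1 at -0.70 with spike-in scaling, both short of 2-fold. Hmox1, heme oxygenase 1, stood at 3.45 with DMSO and 4.96 with LPS, 2.85-fold higher. With control siRNA Hmox1 read 4.58 and 4.82, so the Ruvbl2 siRNA DMSO array was the low one of the 4.

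Secreted proteases, inhibitors and matrix proteins gave 12 higher (57.1%) and 2 lower (9.52%) of 21, with a median of 1.54. Mmp9, gelatinase B, stood at -4.65 with DMSO and 0.65 with LPS, 39.3-fold higher, but its DMSO level was close to the floor. Serpinb2, the plasminogen activator inhibitor 2, was not well above background with DMSO and stood at 0.61 with LPS, at least 43.6-fold higher. The coagulation factor F10 was 12.2-fold, the acute phase protein Saa3 7.44-fold and the leukocyte protease inhibitor Slpi 5.32-fold higher. Of the metalloproteinase inhibitors Timp1 was 6.70-fold higher and Timp2 2.94-fold lower. The mean of each gene's probes gives smaller differences for Timp2 (-0.63 against -1.55) and Slpi (1.18 against 2.41). Spp1, osteopontin, was bright on both arrays, at 7.61 with DMSO and 9.15 with LPS (2.91-fold). Hp, haptoglobin, was 4.70-fold lower. A cluster of stefin and cystatin genes on chromosome 16, intracellular inhibitors of cathepsins, was picked out after the values were seen: 6 neighbouring genes were higher by bounds from 1.66 to 7.51 on the log2 scale. Cstdc4 was not well above background with DMSO and stood at 2.68 with LPS, at least 183-fold higher, the largest difference of the genes compared. These paralogs are close in sequence, so their values are uncertain as separate genes.

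Adhesion and shape genes were split, 5 higher and 5 lower of 37 (13.5% each), with a median of -0.07 that becomes 0.29 with spike-in scaling. Pdpn, podoplanin, was not well above background with DMSO and stood at 2.34 with LPS, at least 144-fold higher. The heparan sulfate carrier Sdc3 stood at -2.01 with DMSO and 0.84 with LPS, 7.18-fold higher, and Cd44, the hyaluronan receptor, was 2.22-fold higher. On the lower side stood the semaphorin Sema4d (3.06-fold), the myosin Myo1f (2.94-fold), the semaphorin receptor Plxna2 (2.41-fold) and the integrins Itga4 (2.33-fold) and Itgb5 (2.15-fold). With spike-in scaling 2 of these 5 stay past 2-fold, with Plxna2 at -0.90, Itga4 at -0.85 and Itgb5 at -0.74 on the log2 scale. Complement genes were similarly split, 4 higher and 2 lower of 16. Cfb, the protease of the alternative pathway, stood at -3.51 with DMSO and -0.98 with LPS, 5.77-fold higher, whereas C3, the central component, stood at 1.66 with DMSO and 0.23 with LPS, 2.69-fold lower.

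The largest lower differences were smaller than the largest higher ones. Dgkg, a diacylglycerol kinase, stood at 0.80 with DMSO and -2.85 with LPS, 12.6-fold lower, while its relative Dgka was 2.90-fold higher (0.93 on the log2 scale with the mean of its probes). The sialyltransferase St6gal1 stood at -0.21 with DMSO and -3.06 with LPS, 7.24-fold lower, a difference of -2.86 that is -1.61 with the mean of its probes. Lsp1, an actin-binding leukocyte protein, stood at 5.66 with DMSO and 2.86 with LPS, 6.98-fold lower, and its other measured probes gave -3.02 and -2.99. Il4i1, a phenylalanine oxidase, was 6.78-fold lower, the adaptor Pram1 5.02-fold, and the adhesion receptor Adgre5, CD97, 4.14-fold. Cd24a was 4.09-fold and the triggering receptor-like gene Treml1 4.05-fold lower and their other probes gave -1.90 and -1.87. The transcriptional repressor Gfi1b stood at -2.14 with DMSO and was not above background with LPS, at least 6.38-fold lower. Dgkg (-4.05), Lsp1 (-2.72) and Gfi1b (-2.002, a bound) were also lower with control siRNA.

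The remaining genes among the 20 largest measured lower differences did not all have a counterpart with control siRNA. Of the 20, 17 were also at least 2-fold lower there, 2 were under 2-fold and 1, Neurod2, was not compared. Myadml2 stood at 0.02 with DMSO and -3.11 with LPS, 8.75-fold lower, with a control difference of -2.38, and Trp53i11 was 4.47-fold lower, with -2.53. The co-chaperone Dnajb14 was 4.16-fold lower (-1.49 with control siRNA), the small heat shock protein Hspb7 3.98-fold (-1.38) and the secreted protein Tafa3 4.75-fold (-1.71). The carbonyl reductase Cbr2 differed by -2.42 against -1.08, and Plxdc1 by -1.93 against a bound of -1.003. The endosomal sodium-proton exchanger Slc9a9 stood at -1.996 with DMSO and -4.43 with LPS, 5.39-fold lower, against -0.74 with control siRNA. Prb1, a proline-rich protein gene, stood at -0.19 with DMSO and -2.36 with LPS, 4.51-fold lower, against levels of -2.51 and -2.54 with control siRNA, where the DMSO array with Ruvbl2 siRNA was the one apart. Neurod2, a neuronal transcription factor, stood at -2.37 with DMSO and -4.34 with LPS, 3.92-fold lower, and was not well above background with control siRNA. With normexp Slc9a9, Plxdc1 and Neurod2 are at -0.97, -0.80 and -0.48, short of 2-fold.

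Most macrophage lineage genes were within 2-fold. Of the 28 lineage genes compared, 4 were higher and 2 lower, and their median was -0.07 (0.30 with spike-in scaling). The growth factor receptor Csf1r and the transcription factor Spi1, PU.1, differed by -0.23 and -0.20, both positive with spike-in scaling, and Irf8, with a difference of -0.05, was within 0.37 of 0 as well. Cebpd, a factor of the acute phase response, was 2.40-fold higher and the repressor Id3 2.37-fold lower. Lysosomal genes gave 2 higher (5.26%) and 3 lower (7.89%) of 38, against 4.14% and 2.07% of all genes, and none lower with spike-in scaling. Tfeb, the master regulator of lysosome genes, was 2.01-fold lower and the glycosidase Man2b1 2.34-fold lower. Id3, Tfeb and Man2b1 are at -0.88, -0.64 and -0.86 with spike-in scaling, short of 2-fold. With spike-in scaling the list median of -0.08 becomes 0.29. In the osteoclast list, which describes a fate these cells can take, 4 were higher and 1 lower of 19 (median -0.00, 0.37 with spike-in scaling). Acp5 and Ctsk, the phosphatase and collagenase of osteoclasts, were 2.06-fold and 2.02-fold higher, and the fusion protein Ocstamp was 3.23-fold lower.

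Stress and metabolic programmes were close to the background of all genes. Glycolysis and hypoxia genes had none called of 38 (median -0.05, 0.32 with spike-in scaling), with Slc2a1 at 4.50 with DMSO and 4.995 with LPS, Hk2 at 3.06 with DMSO and 3.29 with LPS and Hif1a at 3.34 with DMSO and 3.75 with LPS. Respiratory chain genes had none called of 39, with 30 below 0 and a median of -0.17 that becomes 0.20 with spike-in scaling. The unfolded protein response had none called of 24. NRF2 targets had 2 higher (6.25%) and 1 lower (3.12%) of 32, with a median of -0.11 that becomes 0.25 with spike-in scaling. Hmox1 was among the higher. Gstm1 was 2.22-fold lower (-0.78 on the log2 scale with spike-in scaling and -0.87 with the mean of its probes). Sterol synthesis and LXR targets had 2 higher (5.26%) and 1 lower (2.63%) of 38, with the cholesterol exporter Abca1 2.13-fold higher. Their median of -0.12 becomes 0.25 with spike-in scaling. Heat shock genes had none called of 26.

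Targets of ATF4, the factor that turns on amino acid supply genes under stress, had 2 higher and 1 lower of 32, and a median of -0.04 (0.33 with spike-in scaling). Trib3, a pseudokinase target of ATF4, stood at 1.04 with DMSO and 2.59 with LPS, 2.92-fold higher, and Cth, the cysteine-making lyase, stood at -2.16 with DMSO and -0.90 with LPS, 2.39-fold higher. Asns, asparagine synthetase, read 6.62 with DMSO and 6.57 with LPS, Chac1 1.74 with DMSO and 2.48 with LPS and Ddit3, CHOP, -0.07 with DMSO and 0.57 with LPS. With control siRNA the same list had a median of 0.48, and 30 of 32 genes had the smaller or more negative difference with Ruvbl2 siRNA, against 55.0% of all genes. The control differences were 2.40 for Trib3, 3.32 for Cth, 0.72 for Asns, 1.93 for Chac1 and 1.78 for Ddit3. Scaling on the spike-in RNA would add 0.37 to the differences with Ruvbl2 siRNA and 0.070 to those with control siRNA, with which 27 of 32 genes still have the smaller difference with Ruvbl2 siRNA. With 1 array a group this difference has no test.

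Cell cycle genes were within 2-fold except Myc, the 1 called of 44 G1 to S and replication genes; none of 36 mitotic genes was, and their median of -0.08 becomes 0.29 with spike-in scaling. Ccnd2, cyclin D2, was dim and read -2.93 with DMSO and -2.28 with LPS, a difference of 0.65 against 3.86 with control siRNA. With Ruvbl2 siRNA its difference passes 2-fold with the mean of its probes (1.06) and with spike-in scaling (1.02). The p53 list had 3 higher of 29 (10.3%) and none lower. The higher were Plk2 (3.19-fold), the death receptor Fas (2.36-fold) and Eda2r (2.20-fold). The mean of a gene's probes takes Fas to 0.61 and Eda2r to 0.36 on the log2 scale, which leaves Plk2. Cdkn1a and Mdm2 differed by 0.45 and 0.55. Among apoptosis regulators the necroptosis effector Mlkl and the survival gene Bcl2l1 were 3.63-fold and 2.99-fold higher, and Bmf, a BH3-only gene, 2.36-fold lower (-0.87 with spike-in scaling). Ribosome biogenesis genes had none called of 43, with 33 above 0. Ribosomal protein genes were shifted slightly down, 52 of 54 Rpl genes and 38 of 43 Rps genes below 0 (medians -0.19 and -0.14), a direction that spike-in scaling turns to 0.18 and 0.22.

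The genes that RUVBL2 works with lay within 2-fold with 1 exception. None of 33 members of the INO80, SRCAP, TIP60 and related chromatin complexes was called (median -0.07, 0.29 with spike-in scaling). In the R2TP, TTT and PIKK list 1 of 22 was, Wdr92, a partner of the R2TP-like prefoldin complex, which stood at 5.50 with DMSO and 7.97 with LPS, 5.57-fold higher. On the log2 scale that is 2.48, and with control siRNA it was 3.36, but its 3 other measured probes gave -0.35 to -0.12 with Ruvbl2 siRNA, and the mean of its probes 0.47.

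Outside the 43 lists stood 642 of the 839 called genes. Among the largest was Scimp, a Toll-like receptor adaptor of antigen-presenting cells, at -3.34 with DMSO and 0.92 with LPS (19.2-fold). The small GTPase Rab15 was 17.9-fold, the glutathione transferase Gstt1 13.7-fold and the serotonin transporter Slc6a4 11.9-fold higher, and Urah, a urate pathway enzyme, at least 62.6-fold (log2 5.97, but 1.85 as the mean of its probes). Runs of at least 3 neighbouring genes called in the same direction, looked for after the values were seen, numbered 14 and held 54 of the 839 called genes, 13 of them higher and 1 lower. On chromosome 7 Trim34a, Trim34b, Trim12c, Trim30a and Trim30d, antiviral ubiquitin ligase relatives, were higher by 1.27 to 2.20 on the log2 scale. The 4 Phf11 genes of chromosome 14 were higher by 1.40 to 1.69 and 4 Ms4a genes of chromosome 19 by 1.12 to 2.02, again families of similar sequence. The 694 lncRNA genes compared had 28 higher (4.03%) and 30 lower (4.32%), against 4.14% and 2.07% of all genes. Most of these calls, in both directions, fell short of 2-fold with normexp. Firre (-1.065 with normexp) was among the few lower ones that stayed, but it is at -0.78 with spike-in scaling, short of 2-fold. Of 10808 unnamed probes compared, 2.7% were higher and 2.48% lower.

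**Figure D4:**
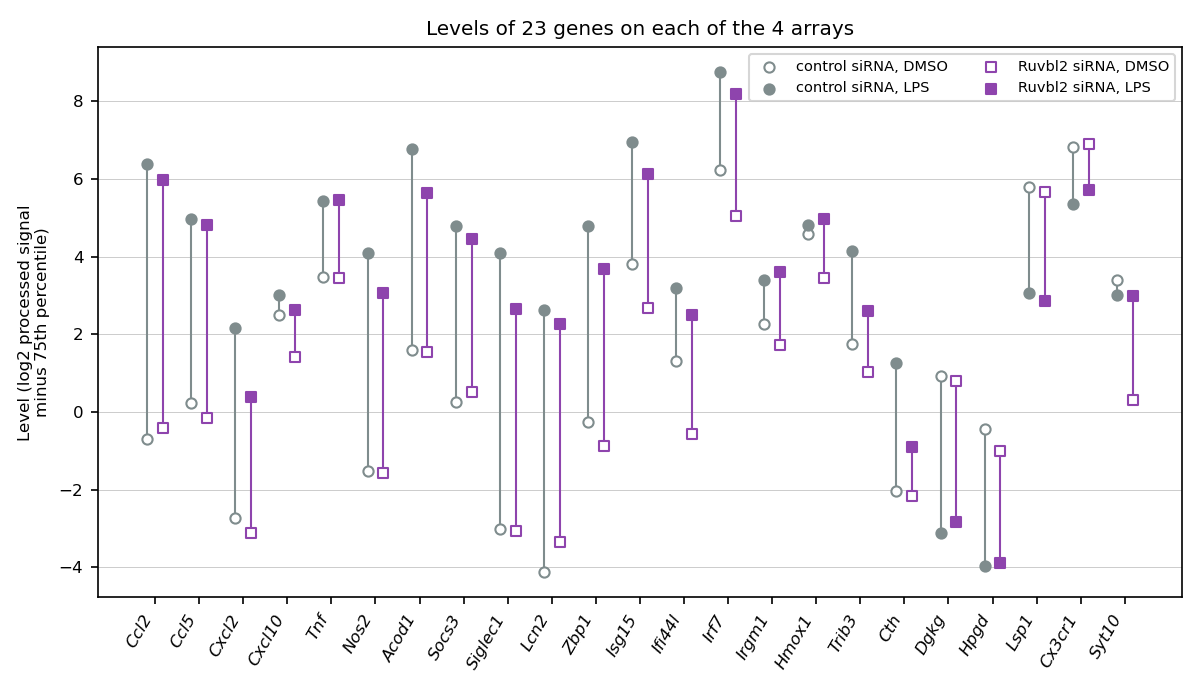
Levels (log2 processed signal minus the 75th percentile, y axis) of 23 genes on each of the 4 arrays; open symbols are DMSO, filled symbols LPS, circles control siRNA and squares Ruvbl2 siRNA, 1 array each, with a line joining the pair. Line lengths differ between the siRNAs for Siglec1 (log2 difference 5.72 with Ruvbl2 siRNA, 7.11 with control siRNA), Nos2 (4.63, 5.61), Hmox1, Cth and Syt10, among others. They are close for Ccl5 (4.96, 4.72) and Lsp1 (-2.80, -2.72). Syt10 starts low on the Ruvbl2 siRNA DMSO array.

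The 2 responses can be set side by side gene by gene; they share no array. With control siRNA 776 of 13512 genes were higher (5.74%) and 298 lower (2.21%), 7.95% in either direction. Among the 13106 genes compared with both siRNAs, 410 were higher with each and 134 lower with each. A further 87 were higher with Ruvbl2 siRNA while under 2-fold with control siRNA, against 313 of the reverse kind, and 106 and 158 for lower genes. The order of such counts depends on the scale. Spike-in scaling shifts the Ruvbl2 siRNA pair by 0.37 and the control pair by only 0.070. For the Ruvbl2 siRNA pair it turns 559 higher calls into 1103, and 280 lower calls into 120. The control and overlap counts here are for the reported scaling alone, so they do not settle which response was larger. Interferon-inducible GTPases had a larger difference with Ruvbl2 siRNA in 12 of 13 genes measured on all 4 arrays, with medians of 1.29 and 0.86. The antiviral effectors did so in 39 of 50, with medians of 1.42 and 1.29. Chemokines had the smaller difference with Ruvbl2 siRNA in 7 of 11, with medians of 1.58 and 2.64, and cytokines in 9 of 12, with medians of 0.27 and 0.69. Cxcl2 was 3.49 against 4.91 and Ccl5 4.96 against 4.72; with spike-in scaling the smaller counts are 7 of 11 and 4 of 12. The MAP kinase phosphatase and Sprouty genes had the smaller or more negative difference with Ruvbl2 siRNA in 15 of 17, with medians of 0.14 and 0.66, a direction that turns with spike-in scaling (6 of 17). Over all 12471 genes measured on 4 arrays that share was 55.0%, and 17.5% with spike-in scaling. The larger difference was with Ruvbl2 siRNA in 5615 of the 12471 with the reported scaling and in 10294 with spike-in scaling. Under spike-in scaling it was so in 12 of 13 GTPases and 43 of 50 antiviral effectors, the latter close to the share of all genes. None of these contrasts could be tested, and slide position follows the siRNA (row 2 for Ruvbl2, row 1 for control), so the siRNA and the row cannot be told apart.

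**Figure D5:**
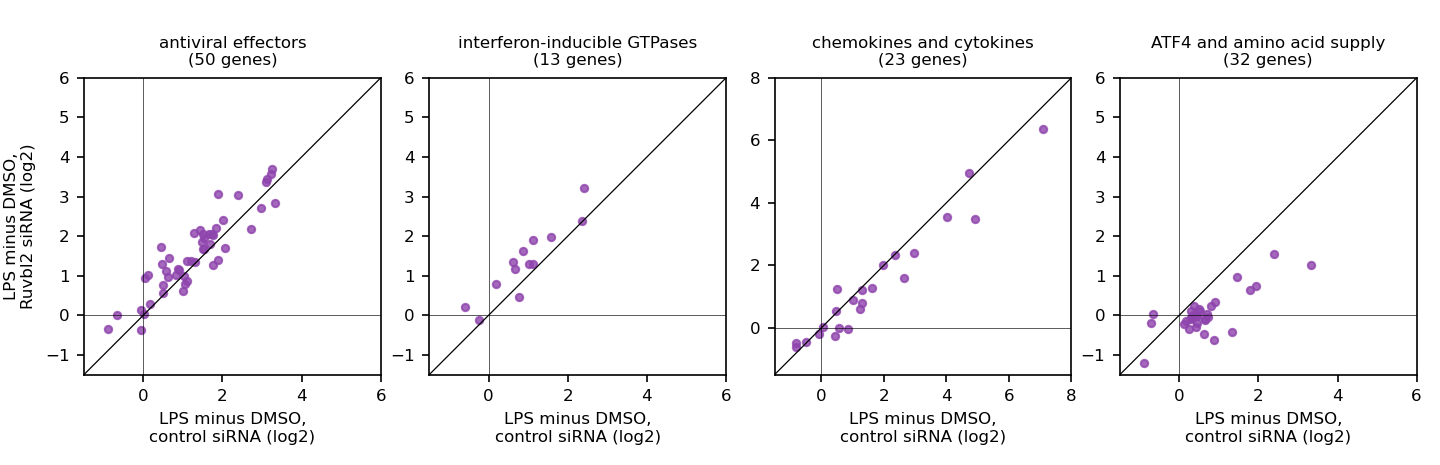
log2 difference, LPS minus DMSO, with control siRNA (x axis) and Ruvbl2 siRNA (y axis) for genes measured on all 4 arrays in 4 lists; each point is a gene and the diagonal marks equal differences; the panel of chemokines and cytokines has a wider axis range. GTPases lie above the diagonal in 12 of 13 genes, and ATF4 and amino acid genes below it in 30 of 32.

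Baselines enter these contrasts. Of the interferon-stimulated genes named, Isg15 read 3.82 with control siRNA and 2.67 with Ruvbl2 siRNA under DMSO, and 6.96 and 6.12 under LPS, so its level was lower with Ruvbl2 siRNA in both treatments. Irf7 (6.24 and 5.05 under DMSO, 8.76 and 8.19 under LPS) and Ifi44l (1.31 and -0.57, then 3.20 and 2.49) had the same order, with the larger gap under DMSO. Among called genes, several of the widest departures between the responses were of genes in no list. Syt10, a synaptotagmin, read 0.30 with DMSO and 2.98 with LPS, against 3.41 and 3.02 with control siRNA, and the aldehyde dehydrogenase Aldh3a1 -2.21 with DMSO and 0.11 with LPS, against 0.29 and -0.04; in both the DMSO array with Ruvbl2 siRNA was the one apart. The sugar transporter Slc35b4 read 2.34 with DMSO and 0.53 with LPS, against -0.23 and 0.14, where the same array was apart on the high side. The lectin-like receptor Klra2 differed by 3.002 and 5.54. Of the other genes whose response was farthest above that with control siRNA, Gucy2d differed by 1.48 against -0.18, Serpina3h by 1.21 against -0.39 and Ghrl, which encodes ghrelin, by 1.20 against -0.36. All 3 were dim, with DMSO levels of -3.90, -4.50 and -3.45, and short of 2-fold with normexp (0.53, 0.27 and 0.55). The mean of a gene's probes gives 1.34 for Syt10 against 2.68 on its brightest probe.

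How far 1 array decided the calls could be counted. For 26 of the 559 higher genes (4.65%) and 51 of the 280 lower genes (18.2%) the Ruvbl2 siRNA DMSO array alone stood at least 2-fold from each of the other 3. For 85 of the higher (15.2%) and 6 of the lower genes (2.14%) the LPS array did. Of the higher genes 428 (76.6%) were also at least 2-fold above the control siRNA DMSO array, and of the lower genes 136 (48.6%) at least 2-fold below it. Of the 71 lower bounds 37 (52.1%) were detected on the Ruvbl2 siRNA DMSO array and no other, Cma1, Spint4, Pramel32, Vmn1r18 and Ifi27l2b among them, of which Cma1 alone stays past 2-fold with normexp (-1.25). Dim genes carried more of the calls: with the brighter array between levels of -4 and -2, 10.1% of genes were higher and 6.27% lower, and above a level of 4, 2.14% and 0.806%.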

How the data were processed

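Total RNA was labelled with Cy3 and hybridised to 1-colour Agilent arrays, 1 per group. The values are spot intensities as deposited, the processed signal of Agilent Feature Extraction (11.5.1.1 per the file headers, 11.0 per the submitters' processing notes), which this software gives after its own background correction; the deposited value table held the same intensities. Control spots were left out, spots of a probe averaged, and log2 taken minus the 75th percentile of each array. A gene was read from its probe with the highest mean level, and called at a 2-fold difference. Called genes had 190 other measured probes, of which 164 differed in the same direction and 97 passed 2-fold in it. Of 22911 genes with a symbol 13517 were compared. Genes were named from the array annotation; promoter sequences are from RefSeq (GRCm38.p6). The members and the 43 lists were chosen with earlier results of these data known, from which no pattern is independent support. Named genes were taken from list members and, over all genes, were the 20 largest measured differences and 6 largest bounds a direction that kept their direction with spike-in scaling and normexp, leaving out clone and unnamed symbols, and the 5 called genes a direction that departed most from control siRNA. Alternatives were scaling on spike-in probes, quantile normalization, median centring, normexp on the median signals with quantile normalization (limma 3.58.1, R 4.3.3, offset 50), the mean of a gene's probes, 3 filters on dim genes and the deposited value table. On a simulated second array of the DMSO array with Ruvbl2 siRNA the calling recovered 100 of 100 spots raised 4-fold and 100 of 100 lowered 4-fold, with 0 of 20835 unchanged spots above a level of -2 called. The changed spots also lay above -2 and the simulated noise was small beside the 2-fold cutoff, so this outcome was close to assured. It checks the calling steps and gives no error rate for dim genes or between cultures. Array number limits the precision.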

Additional observations from a re-analysis of the deposited data

Results flagged for a closer look

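Pi16, a peptidase inhibitor gene, and Col9a2, a collagen chain, were picked out because the LPS difference ran in opposite directions past 2-fold with the 2 siRNAs. Pi16 read 0.65 with DMSO and -0.43 with LPS with Ruvbl2 siRNA, a difference of -1.08, and -0.91 and 0.39 with control siRNA, a difference of 1.30. Col9a2 read -3.32 with DMSO and -4.55 with LPS with Ruvbl2 siRNA, a difference of -1.23, and -5.14 and -4.06 with control siRNA, a difference of 1.08; these levels are near the lowest detected, and normexp gives -0.27 for Ruvbl2 siRNA. The difference between the siRNAs was not tested for either gene, since each value rests on 1 array. With spike-in scaling Pi16 is at -0.71 and Col9a2 at -0.86 with Ruvbl2 siRNA, short of 2-fold. They were the only genes of the 13106 compared with both siRNAs that were called in opposite directions with the reported scaling.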

How the results depend on the processing

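No paired analysis was possible because each group was 1 array. The 559 higher and 280 lower genes, a share of 66.6% higher among those called, became 1103, 120 and 90.2% with spike-in scaling. Counts fell to 298 and 116 with normexp on the median signals and quantile normalization, chosen after seeing the data because the files hold no mean signal, and to 366 and 160 with a minimum level of -2 on the brighter array; the higher share was 72.0% and 69.6%. With no filter on dim genes there were 1151 higher and 978 lower, a share of 54.1%. Quantile normalization (572 and 268), median centring (560 and 279), the mean of a gene's probes (520 and 241), measured differences alone (403 and 209) and the deposited value table (559 and 280) stayed within 1.5 times. Of 43 list medians 12 changed sign with spike-in scaling, 2 with normexp, 2 with the mean of a gene's probes and 1 with quantile normalization. The causes were not tested. Of 177 named genes past 2-fold 157 stayed so with spike-in scaling, 137 with normexp and 162 with the mean of a gene's probes, with which Pramel32 (-0.31), Tfeb (-0.71) and Ghrl (0.49) also fell short. Those named that fell short with normexp were Abca1, Acp5, Alox5, Arg2, Cd274, Cd36, Cda, Col9a2, Cp, Cth, Ctsk, Dgka, Eda2r, Fcgr2b, Fcgr4, Fpr1, Ghrl, Gucy2d, H2-T10, Herc6, Hp, Ifi27l2b, Ifit2, Ikbke, Il6, Neurod2, Pi16, Plxdc1, Pnp2, Pramel32, Serpina3h, Slc40a1, Slc9a9, Spint4, Tfeb, Tgfbi, Timp2, Trim34a, Trim34b and Vmn1r18. Depth here is signal over background: the technical SD of a difference was 0.68 at levels from -6 to -4 and 0.58 from -8 to -6, so that small differences there could not be read.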
